A study of Mus musculus with 2 samples.

Results

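Fragments of the small nuclear RNAs (snRNAs) U1, U2, U5, U6, U7, U11 and U12 were examined in sRNA libraries of J1 ES cells, a mouse embryonic stem cell line. The members were the sequenced tags, that is the distinct clean read sequences, which matched without mismatch and in sense an snRNA transcript of the GENCODE vM21 annotation (genome build GRCm38) whose gene symbol starts with Rnu. There were 11 such genes, of 34879 annotated genes with at least 1 matching tag, and all 11 had tags. Of 1766298 distinct tags in the series, 1842 matched an snRNA, and 806 of these were read in both libraries. The annotation used here has no gene under a Rnu4 symbol, so U4 was not analysed here. U7 is a member by its name and type, although it works in histone mRNA processing and not in splicing.

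The cells were treated for 24 h with 1 mM AICAR, an activator of AMP-activated protein kinase, or with an equal volume of DMSO, and 1 library was sequenced per condition. The paper gives gelatin-coated plates and medium with LIF for other assays of J1 ES cells, and does not state either for the sequenced cells. The control is titled J1_U and its treatment is given as DMSO. With 1 library per condition no spread between replicates could be estimated, so each fold change below (AICAR over DMSO) compares these libraries and not the conditions, and its 95% interval from the exact binomial distribution covers counting error only. Called the control library (DMSO) and the treated library (AICAR) below, they held 18870345 and 21091226 clean reads, so that 1 read was worth 0.0530 and 0.0474 RPM (reads per 1000000 clean reads). Where 2 values follow each other, the control comes first.

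The miRNA hairpins that mark mouse ES cells (Mir290a, Mir291a, Mir293, Mir294 and Mir295, with Mir292a not found under that symbol) together had 31102 RPM in the control library and 53940 RPM in the treated library. Of the fibroblast markers, Mir199a-1 and Mir199a-2 shared the same reads, Mir143 had 109 and 98.5 RPM, Mir214 had no read, and the list as a whole had 202 and 190 RPM. Reads on tags shorter than 21 nt made up 21.3% of the clean reads in the control library and 16.3% in the treated library, a difference of the whole libraries that is set beside the snRNA values below.

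In the spliceosome, U1 pairs with the 5′ splice site and U2 with the branch site of the intron, and U5 and U6 join later, U6 replacing U1 at the 5′ splice site. U11 and U12 take the places of U1 and U2 in the minor spliceosome, which removes a small class of introns. Except for U6, these RNAs are made by RNA polymerase II and carry a short uridine-rich site that is held in a ring of Sm proteins, while U6 is made by RNA polymerase III and binds the related LSm proteins at its uridine-rich 3′ end. U7 carries an Sm site bound by a ring of its own composition.

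The core letters ATTTNT of the Sm site, where N is any base, were searched on the sense strand and were found once in each of U1, U2, U5, U7, U11 and U12. Among 1507 snoRNA- and scaRNA-type transcripts in the length range of the snRNAs, 9.89% hold these letters. The following stretches of 30 nt show the site in the copy with the most reads of each class, with ATTTNT in capitals, because most U1, U2 and U12 fragments lay across it.
U1, Rnu1a1, positions 114 to 143: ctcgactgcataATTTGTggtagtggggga
U2, Rnu2-10, positions 87 to 116: tatattaaatggATTTTTggaagtaggagt
U12, Rnu12, positions 63 to 92: tatgtgagaagaATTTTTgagcgggtatag
U7, Rnu7, positions 10 to 39: agctcttttagaATTTGTctagcaggtttt
U11, Rnu11, positions 76 to 105: ttcggaagcataATTTTTtggtaattgggc
U5, Rnu5g, positions 76 to 105: agtcttaaaccaATTTTTtgaggccttgtc

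U6 has no Sm site. The positions covered at 0.5 of its peak or more were 40 to 65, which take in the ACAGAGA box and run past it. These letters pair with the 5′ splice site, and 33.0% and 40.2% of the U6 reads held all of them. The most frequent first base, 42, lay inside the box, with 22.5% and 21.1% of the U6 reads. The box was found once on the sense strand, at positions 41 to 47, and 3.38% of the same snoRNA- and scaRNA-type transcripts hold these letters.

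All snRNA tags together had 24342 reads (1290 RPM) in the control library and 22004 reads (1043 RPM) in the treated library, a fold change (AICAR over DMSO) of 0.809 (95% interval 0.794 to 0.824, p = 1.5e-115 in an exact Fisher test, two-sided, between the libraries). With tags of at least 21 nt only, the total came to 1.02 (0.995 to 1.04). The thresholds taken from the study, a fold change that reaches 2 or is no more than 0.5 and a p of no more than 0.01, were passed by none of the 7 classes, against 15.1% of the 1340 annotated small RNA features that reached 1 RPM in either library. Of these features, 390 were other snRNA-type genes, a type that shared most of its reads with the members. Differences between classes that did not pass the thresholds are given as values. The snRNA reads were nearly all in sense, with 2 antisense reads in the control and 7 in the treated library. No tag matched more than 1 class.

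U2 was the class with the most reads. It had 13229 reads (701 RPM, 95% interval 689 to 713) in the control library and 10902 reads (517 RPM, 507 to 527) in the treated library, giving a fold change of 0.737 (0.719 to 0.756, p = 1.9e-123, exact Fisher test). U6 had 2846 reads (151 RPM) and 2091 reads (99.1 RPM), giving a fold change of 0.657 (0.621 to 0.696). U6 therefore had the lowest fold change of the classes, although it could not be ranked against U7, whose interval was 0.509 to 1.21. Both U2 and U6 had less in the treated library by more than counting error, although U2 came to 1.08 with tags of at least 21 nt only. U1 had 7083 reads (375 RPM) and 7419 reads (352 RPM), giving a fold change of 0.937 (0.907 to 0.968, p = 9.6e-05, exact Fisher test). This too was less by more than counting error, but U1 lay above 1 with TMM scaling (1.07) and with median-ratio scaling (1.05). It also lay above 1 with tags of at least 21 nt only (1.08). Both scalings were set by small RNA features that include the other snRNA-type genes. Those with at least 1 RPM had a median fold change of 0.659, so the scalings are not independent of the snRNA values.

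Of the minor spliceosome RNAs, U12 was higher in the treated library by more than counting error and U11 had no determined direction. U12 had 677 reads (35.9 RPM) in the control library and 1044 reads (49.5 RPM) in the treated library, giving a fold change of 1.38 (95% interval 1.25 to 1.52, p = 4.7e-11, exact Fisher test), and its intervals in the libraries did not overlap. U11 had 361 reads (19.1 RPM) and 387 reads (18.3 RPM), giving a fold change of 0.959 (0.829 to 1.11) that could not be told from 1 at this depth and lay above 1 with TMM (1.09) and median-ratio scaling (1.08). U5 had 97 and 118 reads (1.09, 0.825 to 1.44), and U7 had 49 and 43 reads (0.785, 0.509 to 1.21). For U5 and U7 the depth could not show a difference.

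**Figure D1:**
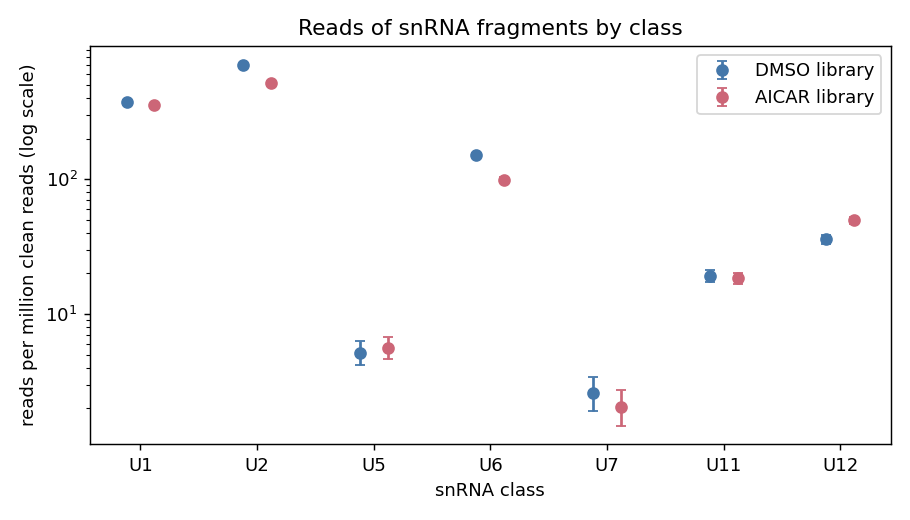
RPM (log axis) of each snRNA class in the control and the treated library, 1 point per library, with bars for the 95% exact binomial interval of the counts. U2, U6 and, by less, U1 sat lower and U12 higher in the treated library, while the intervals of U5, U7 and U11 overlapped.

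Per 100 nt of the snRNA, the order of the classes was U2 (367 RPM per 100 nt in the control and 271 in the treated library), U1 (229 and 214), U6 (141 and 92.7), U12 (23.8 and 32.8), U11 (14.3 and 13.7), U5 (4.43 and 4.82) and U7 (4.19 and 3.29). U5 and U7 could not be ordered, since their intervals overlapped in both libraries. The range over the classes was thus far wider than any difference between the libraries. These are levels of fragments between 18 and 34 nt and not of the full-length snRNAs.

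Most snRNA genes are repeated in the genome, so a tag usually could not be given to 1 locus. The U2 copy Rnu2-10 is on chromosome 11 of GRCm38, plus strand (101658238 to 101658428), with no other gene annotated there, and the most abundant U2 tag matched 7 annotated snRNA-type genes. Rnu1a1 lies on the plus strand of chromosome 11 (87422867 to 87423030) within Tex14, and Rnu1b1, Rnu1b2 and Rnu1b6 lie on chromosome 3 (96359953 to 96360117, 96374021 to 96374185 and 96460024 to 96460189). Rnu1b1 and Rnu1b2 are identical in sequence, and Rnu1b6 lies opposite the lincRNA gene Gm10685. Rnu6 lies on the minus strand of chromosome 17 (13432033 to 13432139), its most abundant tag matched 249 snRNA-type genes, and every tag of the pseudogene copy Rnu6-ps2 (chromosome 4, 119528000 to 119528106) also matched Rnu6.

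The minor classes have fewer copies. Rnu12 lies on the plus strand of chromosome 15 (83149644 to 83149794) with no other gene annotated there, and Rnu11 on the minus strand of chromosome 4 (132270080 to 132270213), opposite the lincRNA gene Gm28872. No tag of U11 or U12 matched a transcript of another type. Rnu5g (chromosome 9, 65201726 to 65201841) lies opposite Parp16, and 87.6% of the U5 reads in the control and 92.4% in the treated library also matched another transcript type. Rnu7 (chromosome 6, 124741225 to 124741286) lies within Grcc10 and Gm45234 on the same strand, and all U7 reads also matched another transcript type. The low U5 and U7 counts therefore cannot be told apart from fragments of other transcripts.

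Mouse U1 comes in the forms U1a and U1b, of which U1b is known as an embryonic form. Of the U1 reads, 95.9% in the control library and 95.3% in the treated library were on tags that matched both Rnu1a1 and a U1b copy and could not tell the forms apart. Tags that matched Rnu1a1 and no U1b copy had 95 reads in the control and 124 in the treated library, giving a fold change of 1.17 (95% interval 0.887 to 1.54). Tags that matched a U1b copy and not Rnu1a1 had 10.3 and 10.6 RPM, giving a fold change of 1.02 (0.840 to 1.25), and 171 and 184 reads were on tags of Rnu1b6 only. No difference between the libraries could be detected for either form.

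The fragments were not spread along the snRNAs but piled up on the Sm site in 3 classes. In U2, 96.3% of the reads in the control library (95% interval 96.0% to 96.6%) and 95.1% in the treated library (94.7% to 95.5%) were on tags that held all of ATTTTT at positions 99 to 104. In U12 the same share was 90.0% (87.4% to 92.1%) and 90.6% (88.7% to 92.3%), with the site at positions 75 to 80. In U1 it was 82.0% (81.1% to 82.9%) and 78.9% (78.0% to 79.9%), with the site at positions 126 to 131 of Rnu1a1. The share was thus high in both libraries, and slightly lower in the treated library for U1 (p = 3.0e-06) and U2 (p = 4.3e-06, exact Fisher tests of the libraries). With tags of at least 21 nt only, the difference in U2 was -0.0595 percentage points. For U12 no difference could be detected (p = 0.676, exact Fisher test).

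Letters such as ATTTNT were rare in the rest of the libraries. Of the clean reads that were not snRNA tags, 0.463% in the control and 0.554% in the treated library held them. The snRNA tags, which made up 0.129% and 0.104% of the clean reads, held 18.2% and 12.9% of all clean reads with these letters. The positions covered at 0.5 of the peak or more spanned 96 to 115 in U2, 121 to 143 in U1 and 69 to 90 in U12. The fragments across the site had similar borders in the 3 classes: they started a median of 3 nt before the motif in U2 in both libraries, 6 nt before it in U12 and 4 or 5 nt in U1, and ended a median of 10 to 12 nt after it.

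The other classes with an Sm site differed. U11 held the site in 23 reads of each library, or 6.37% (4.08% to 9.41%) and 5.94% (3.804% to 8.78%), although its site has the same letters as that of U12. Its reads came mainly from positions 38 to 61, upstream of the site. In U5 the site was held in 9 of 97 and 7 of 118 reads, and the coverage was highest between positions 9 and 27. In U7 it was held in 24 of 49 and 23 of 43 reads, and the other reads of U7 were at its 3′ end. A high share of reads on the site was thus seen in U1, U2 and U12 and not in U5 and U11, which hold the same letters.

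**Figure D2:**
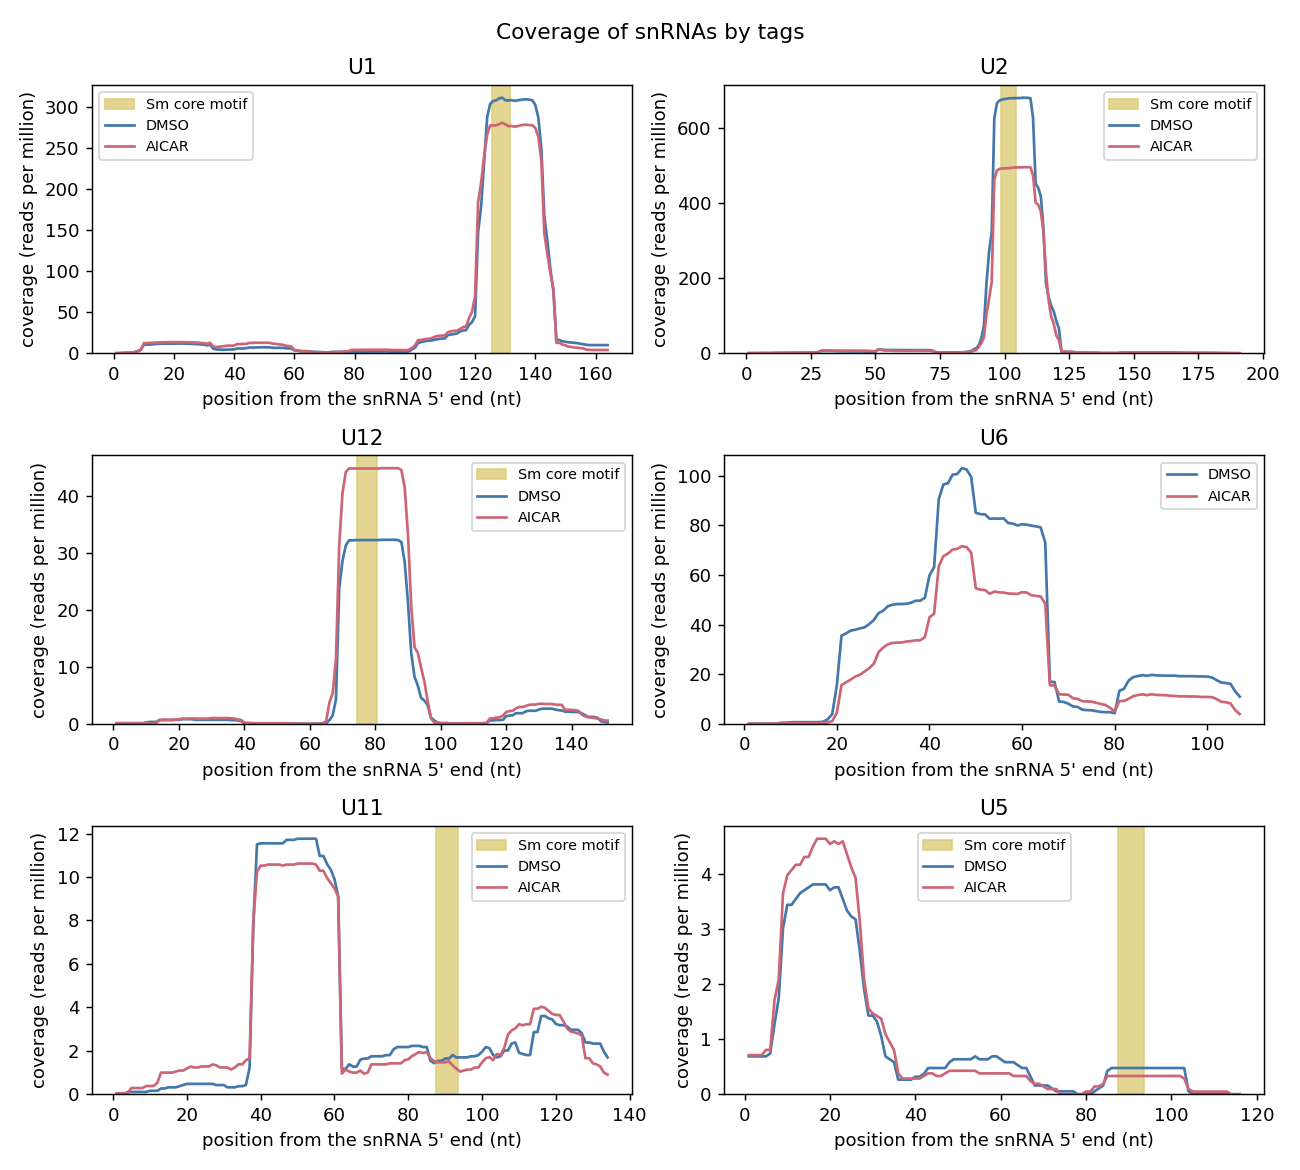
RPM of the tags that cover each position of the most-read copy of U1, U2, U12, U6, U11 and U5 (x axis, nt from the 5′ end), with 1 line per library and the Sm core motif shaded. The peaks of U1, U2 and U12 lie across the motif, those of U11 (positions 38 to 61) and U5 (9 to 27) lie before it, and U6 has no Sm site.

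The regions that pair with the pre-mRNA gave few fragments, except in U6. Tags that held the letters ACTTACC of U1 (positions 3 to 9), which pair with the 5′ splice site, had 8 reads in each library. Only a tag that begins within the first 3 nt can hold these letters. Few reads on them therefore cannot be told apart from few reads at the 5′ end of U1 as such. Those that held GTAGTA of U2 (positions 33 to 38), which pair with the branch site, had 94 reads in the control and 144 in the treated library, or 0.711% and 1.32% of the U2 reads. Tags with AAGGAA of U12 (positions 20 to 25), the counterpart in the minor spliceosome, had 11 and 16 reads. The letters CCTTTTA of loop 1 of U5 (positions 38 to 44) were held by 5 and 6 reads, AAGGG near the 5′ end of U11 by 2 and 1, and AGCTCTT of U7, which pair with histone pre-mRNA, by none. In contrast, the ACAGAGA box of U6 was held by 939 reads, or 33.0% of the U6 reads, in the control library and by 841 reads, or 40.2%, in the treated library. All of these letters were searched on the sense strand only, and the share of the 1507 snoRNA- and scaRNA-type transcripts that hold them was 0.0664% for ACTTACC, 1.59% for GTAGTA, 3.52% for AAGGAA, 1.19% for CCTTTTA, 6.901% for AAGGG and 0.730% for AGCTCTT.

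The ends of the snRNAs themselves were rare among the U1, U2 and U12 tags, while 3′ ends were more frequent in U6, U7 and U11. Tags that began within the first 3 nt had 8 reads in each library for U1, 7 and 5 for U2 and none for U6. U5 had more, with 13 of its 97 reads in the control and 15 of its 118 reads in the treated library. At the 3′ end, tags that ended within the last 3 nt had 225 of the U1 reads in the control library (3.18%) and 90 in the treated library (1.21%, p = 3.0e-16, exact Fisher test). With tags of at least 21 nt only, the U1 share moved by 0.0130 percentage points in the other direction, so the difference rested on the shorter tags. U2 had no such read in either library, which allows a share of up to 0.0279% in the control and 0.0338% in the treated library. The last covered position of its 191 nt copy was 188, just outside this window, with 0.0530 and 0.0474 RPM. U12 had 1.18% and 1.53% of its reads there. U11 had 44 of 361 reads (12.2%) and 27 of 387 reads (6.98%) at its 3′ end, which did not pass the threshold of 0.01 (p = 0.0175, exact Fisher test). U7 had 25 of 49 reads (51.0%) and 20 of 43 reads (46.5%).

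For U6 the 3′ end, a run of uridines that binds LSm proteins, had 304 reads (10.7%) in the control and 173 reads (8.27%) in the treated library (p = 0.00468, exact Fisher test), and all of these reads also matched another transcript type. The reads of tags that ended at the last base of Rnu6 numbered 206 and 82, giving a fold change of 0.356 (95% interval 0.272 to 0.462). Tags with 1 to 3 further thymidines after this base do not match the gene and were counted separately: they had 187 reads in the control and 87 in the treated library. Among all reads that reached the end of Rnu6 with 0 to 3 further bases, these made up 45.6% (40.7% to 50.6%) and 48.6% (41.1% to 56.2%). Both kinds of end thus had fewer reads in the treated library, and the share with further thymidines could not be told apart between the libraries (p = 0.530, exact Fisher test).

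The most abundant tags show the borders of the fragments. The 3 with the most reads in U1, U2 and U12 and the single U11 tag with at least 100 reads are printed with the Sm core letters in capitals where the tag holds all of them, and with their first and last position.
U1, 121 to 142: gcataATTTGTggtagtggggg
U1, 121 to 141: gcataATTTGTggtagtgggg
U1, 121 to 146: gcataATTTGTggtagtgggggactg
U2, 96 to 115: tggATTTTTggaagtaggag
U2, 96 to 114: tggATTTTTggaagtagga
U2, 93 to 111: aaatggATTTTTggaagta
U12, 69 to 90: agaagaATTTTTgagcgggtat
U12, 69 to 89: agaagaATTTTTgagcgggta
U12, 69 to 88: agaagaATTTTTgagcgggt
U11, 38 to 61: actcgattgctgtgcgtgcggaat

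The leading U1 tag (121 to 142) had 759 reads (40.2 RPM) in the control and 985 reads (46.7 RPM) in the treated library, giving a fold change of 1.16 (95% interval 1.06 to 1.28). The tag of 21 nt from the same start had 368 and 361 reads (0.878, 0.757 to 1.02). That of 26 nt had 245 and 440 reads (1.61, 1.37 to 1.89). From the same first base of U1, the longest of these tags had the highest fold change. The values did not rise steadily with length, being 1.51 at 23 nt, 1.08 at 24 nt and 1.02 at 25 nt. The leading U12 tag (69 to 90) had 107 and 132 reads, giving a fold change of 1.10 (0.849 to 1.44), and the leading U11 tag 96 and 126 reads, giving a fold change of 1.17 (0.893 to 1.55), neither of which could be told from 1.

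The tags of U2 did not move together. The tag 96 to 115 (20 nt) had 2010 reads (107 RPM) in the control library and 1546 reads (73.3 RPM) in the treated library, giving a fold change of 0.688 (0.644 to 0.736). The tag 96 to 114, 1 nt shorter, had 1233 and 859 reads (0.623, 0.571 to 0.681). The tag 96 to 116, 1 nt longer than the leading tag, had 504 reads (26.7 RPM) and 1201 reads (56.9 RPM) and rose 2.13-fold (1.92 to 2.37, p = 6.0e-50, exact Fisher test of the libraries). The tag 96 to 117 had 408 and 856 reads (1.88, 1.67 to 2.12). From the same first base, tags with 1 or 2 more bases at the 3′ end were thus higher in the treated library where the shorter tags were lower. The order did not continue to longer tags, since the tag 96 to 121 (26 nt) had 724 and 416 reads (0.514, 0.455 to 0.581).

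Among all tags that reached 10 RPM in either library, 21.7% were past the thresholds upward and 26.4% downward in the treated library (9594 tags tested). Of the 25 snRNA tags tested, 1 was past them upward (4%) and 6 downward (24%), so the share of downward tags was near that of all tags. Among tags below 21 nt, 4 of 9 snRNA tags (44.4%) and 43.9% of all 2468 tags tested were past the thresholds downward, so that the short snRNA tags did not stand apart in this count. All 7 were among the 16 U2 tags tested, and none of the 6 U1 and 3 U6 tags tested passed. The tag that rose and the 5 that fell most all hold the Sm core letters and are shown because they are the snRNA tags furthest past the thresholds, with the tag 93 to 111 printed above.
U2, 96 to 116: tggATTTTTggaagtaggagt
U2, 94 to 111: aatggATTTTTggaagta
U2, 93 to 110: aaatggATTTTTggaagt
U2, 97 to 121: ggATTTTTggaagtaggagttggaa
U2, 92 to 110: taaatggATTTTTggaagt

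The largest fall was that of the tag 94 to 111 (18 nt), with 1168 reads (61.9 RPM) in the control and 415 reads (19.7 RPM) in the treated library, giving a fold change of 0.318 (0.284 to 0.356, p = 2.4e-102, exact Fisher test). The tag 93 to 110 fell from 481 to 183 reads (0.340), the tag 92 to 110 from 226 to 91 reads (0.360), and the tag 93 to 111 from 1376 to 649 reads (0.422). These 4 tags are 18 or 19 nt long and stop 6 or 7 nt after the motif. The tag 97 to 121 (25 nt, 206 and 81 reads, 0.352) was the long one among the falls.

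The reads of the U2 tags were also summed by 3′ end over all starts. These sums include the tags named above and are not a separate result. The tag 96 to 116 alone held 504 of the 682 control reads and 1201 of the 1557 treated reads that ended at 116. Tags that ended at position 111 had 3292 reads in the control library, or 24.9% of the U2 reads, and 1521 reads in the treated library, or 14.0% (fold change 0.413, 0.389 to 0.439). Tags that ended at 115 had 2805 and 2297 reads (0.733, 0.693 to 0.774). Those that ended at 116 had 682 reads (5.16%) and 1557 reads (14.3%), giving a fold change of 2.04 (1.87 to 2.24, p = 1.4e-58, exact Fisher test). Those that ended at 117 had 446 and 935 reads (1.88, 1.67 to 2.10), and those at 121 had 1181 and 621 reads (0.470, 0.426 to 0.519). The 3′ ends of the U2 fragments were thus distributed differently in the libraries, while the first base with the most reads was 96 in both, with 43.2% of the U2 reads in the control and 52.5% in the treated library.

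In U1, the 3′ ends with the most reads were 142 and 146 in both libraries, and their fold changes were 1.07 (1.001 to 1.15) and 1.01 (0.941 to 1.09). The ends between them were lower in the treated library, with 0.680 (0.603 to 0.766) at 144 and 0.686 (0.600 to 0.784) at 145. At the 5′ side of U1, tags that began at 121 had 1956 and 2434 reads (1.11, 1.05 to 1.18), while those that began 3 nt later, at 124, had 1052 and 579 reads (0.492, 0.444 to 0.546). The first bases of the U1 fragments were thus distributed differently in the libraries. In U12, tags that began at 69 had 370 and 425 reads (1.03, 0.892 to 1.18), and those that began at 68 had 53 and 127 reads and rose 2.14-fold (1.54 to 3.01, p = 1.4e-06, exact Fisher test).

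**Figure D3:**
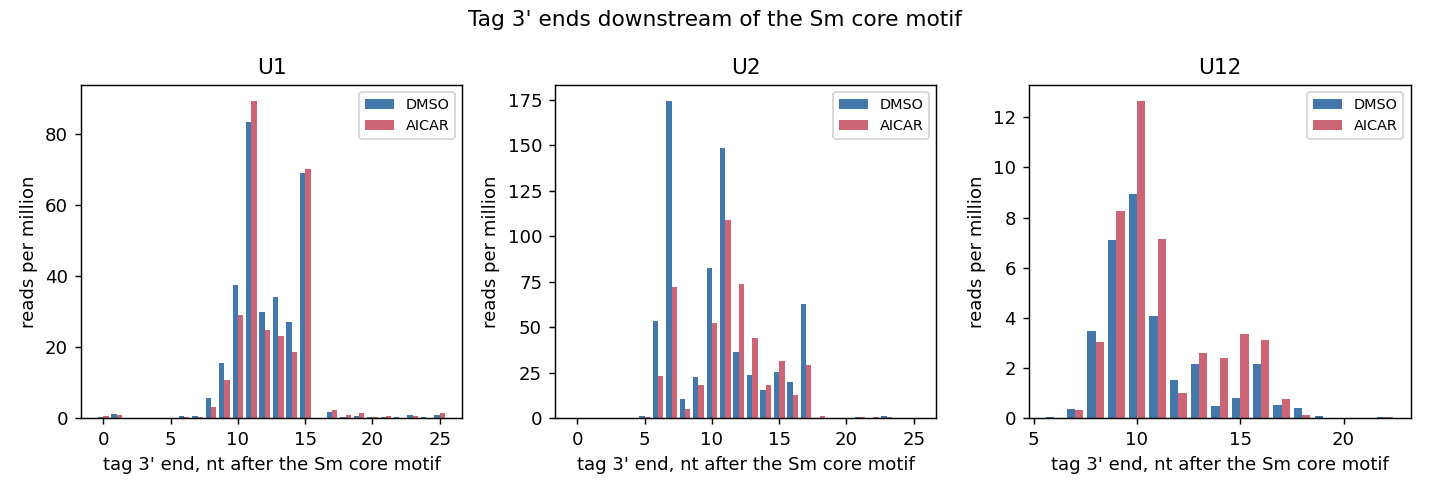
RPM of U1, U2 and U12 tags by the position of their last base, counted in nt after the Sm core motif, with 1 bar per library. In U2 the bars at 7 nt (position 111) and 11 nt (position 115) are lower and those at 12 nt (position 116) and 13 nt (position 117) higher in the treated library, while the main ends of U1 at 11 and 15 nt have fold changes of 1.07 and 1.01.

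The share of tags below 21 nt differed between the libraries in U1, U2, U6 and U11. Of the U2 reads, 63.4% (95% interval 62.6% to 64.2%) in the control library and 46.3% (45.4% to 47.2%) in the treated library came from tags below 21 nt (p = 4.6e-156, exact Fisher test). The shares were 28.4% and 17.6% for U1 (p = 2.4e-54), 21.6% and 11.9% for U11 (p = 3.8e-04) and 9.94% and 7.46% for U6 (p = 0.00239, exact Fisher tests). In U12 they were 17.3% and 12.8%, in U5 53.6% and 54.2% and in U7 89.8% and 81.4%, without a difference past the threshold of 0.01. With a limit of 24 nt in place of 21 nt, the differences of U2 (-0.769 percentage points, p = 0.116), U6 (-2.70, p = 0.0456) and U11 (-7.54, p = 0.0408) were not past the threshold, while U1 (-8.74, p = 2.0e-32) and U12 (-12.5, p = 1.5e-07, exact Fisher tests) were. U2 had the shortest fragments among the well-read classes, with most reads at 19 nt in the control and 20 nt in the treated library, against 22 nt for U1 and U12 and 24 nt for U6 and U11 in both libraries.

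When tags were split at 21 nt, the sums of U1 and U2 were lower in the treated library on the short side only. Single lengths on the long side went both ways. U2 had 1.46 at 22 nt, 0.763 (0.673 to 0.865) at 25 nt and 0.631 (0.570 to 0.698) at 26 nt. U1 had 0.898 at 21 nt and 1.54 (1.34 to 1.77) at 26 nt. U2 tags shorter than 21 nt had 444 RPM in the control and 239 RPM in the treated library (fold change 0.539, 0.520 to 0.558), whereas U2 tags of 21 nt or more had 257 and 278 RPM (1.08, 1.04 to 1.12). U1 tags gave 0.580 (0.541 to 0.622) below and 1.08 (1.04 to 1.12) from 21 nt. The clean reads that were not snRNA tags gave 0.768 below and 1.06 from 21 nt. Relative to the clean reads of the same length group, short U2 tags still had a fold change of 0.702 (0.678 to 0.727, p = 5.1e-90) and short U1 tags 0.756 (0.705 to 0.811, p = 2.4e-15), while U1 and U2 tags from 21 nt had 1.01 (0.978 to 1.05) and 1.02 (0.979 to 1.06, exact Fisher tests). What part the lower share of short reads in the treated library as a whole has in these differences was not tested.

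U6 and U12 did not follow this split. U6 tags had a fold change of 0.493 (0.403 to 0.602) below 21 nt and of 0.675 (0.636 to 0.717) from 21 nt, and relative to clean reads of the same length group 0.643 and 0.635. U6 reads as a whole were thus lower at short and at long lengths. The U6 tags that also match Rnu6-ps2 went the other way, with 261 and 377 reads (1.29, 1.10 to 1.52), while those of Rnu6 alone had 2585 and 1714 reads. U12 tags had 1.02 (0.794 to 1.32) below 21 nt and 1.45 (1.31 to 1.62) from 21 nt, and U12 tags of 26 nt had 28 reads in the control and 95 in the treated library (3.04, 1.97 to 4.81). The value of U12 was above 1 and that of U6 below 1 under every scaling and matching rule tried.

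**Figure D4:**
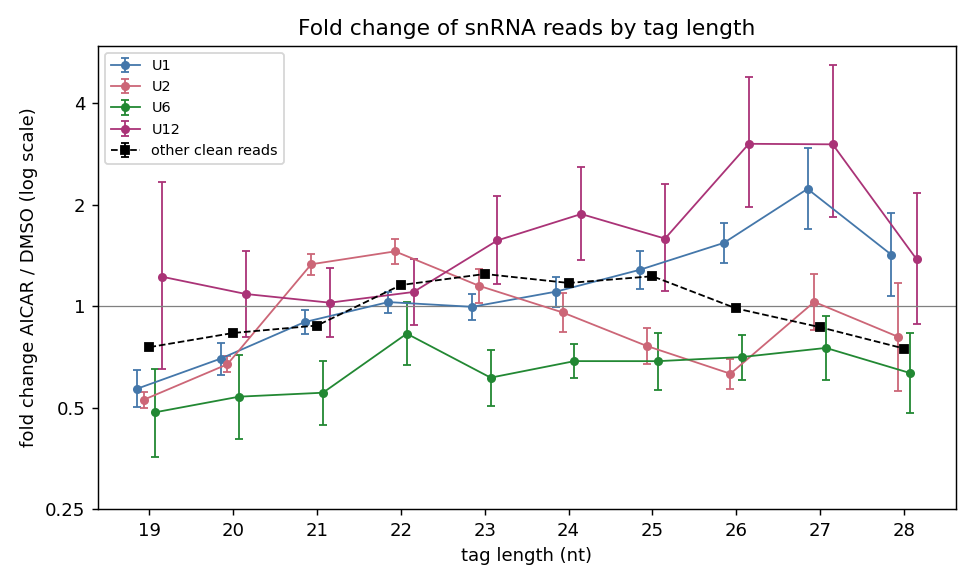
Fold change of RPM (AICAR over DMSO, log axis) by tag length from 19 to 28 nt for U1, U2, U6 and U12 and for all clean reads that are not snRNA tags, with bars for the 95% exact binomial interval. U2 was at 0.528 at 19 nt, at 1.46 at 22 nt and at 0.631 at 26 nt, U6 stayed below 1 at each length, and the other clean reads ranged from 0.750 to 1.25.

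RNAs that stand near the snRNAs in function were set beside them. The 1372 other snRNA-type genes of the annotation shared most of their reads with the 11 members. Tags that matched these genes and no member had 5676 reads (301 RPM) in the control and 4532 reads (215 RPM) in the treated library, giving a fold change of 0.714 (0.687 to 0.743). Of 390 features of this type with at least 1 RPM, 5 (1.28%) were past the thresholds upward and 31 (7.95%) downward, against 5.82% and 9.25% of all small RNA features tested. Features that share tags count the same reads again, since the most abundant U6 tag alone matched 249 snRNA-type genes. These 390 are thus not independent of each other or of the members, and they are part of all features tested. Of the scaRNA-type genes, which guide the chemical modification of snRNAs in Cajal bodies, 21 of 46 had reads, and together they had 964 and 1043 RPM, giving a fold change of 1.08 (1.06 to 1.10). Among 13 scaRNA features with at least 1 RPM, none was past the thresholds upward and 4 were downward, and their median fold change was 0.700, below 1 where that of the summed reads was above 1. The median over all 1340 small RNA features was 0.870.

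Rn7sk, which holds the elongation factor P-TEFb inactive, had 124 RPM in the control and 90.0 RPM in the treated library, giving a fold change of 0.728 (0.685 to 0.773) close to that of U2. Rpph1, the RNA of RNase P, fell to 0.407 (0.361 to 0.458), from 886 to 403 reads. Rmrp, the RNA of RNase MRP, had 1.05 (0.918 to 1.21). The Y RNA Rny1 had 0.522 (0.512 to 0.532) and Rny3 1.11 (1.07 to 1.16). The noncoding RNAs made by RNA polymerase III, to which U6 belongs, thus had fold changes on both sides of 1. The snoRNA-type genes together had 1.19 (1.18 to 1.19) and the miRNA hairpins 1.36 (1.358 to 1.362), so the snRNA total of 0.809 over all tag lengths lay below both.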

How the data were processed

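Small RNA of 18 nt to 30 nt was size-fractionated from total RNA, ligated to adaptors, amplified by PCR and sequenced on a HiSeq. The authors removed low-quality and contaminant reads, merged identical clean reads into tags and deposited the raw count of each tag with its length and sequence. The counts are not normalized and not aligned. The submitters' processing notes name the build mm9, which was not used here, and the trimming tools are not given in the sources used here. The sample labels name a TruSeq RNA kit, while the methods describe size-selected sRNA, and tags here are 18 nt to 44 nt long.

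Each tag was matched without mismatch and in sense to all GENCODE vM21 transcripts, and snRNA tags were grouped by class. RPM uses all clean reads. Positions are counted from 1 at the 5′ end of the copy with the most reads. A tag was called when its fold change was at least 2 or at most 0.5 with p at most 0.01 in Fisher's exact test (two-sided), and the test was limited to tags that reached 10 RPM in either library. Models that estimate the spread between replicates could not be fitted. Shares carry exact binomial intervals (Clopper-Pearson, 95%), which cover counting error only, as PCR reads are not independent molecules. Where a share is 0, the upper end of its interval gave the limit.

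The tags named are the 3 with the most reads per class (at least 100 reads) and the 5 largest rises and falls past the thresholds. The leading U6 tags are not reported here. The members and lists were chosen with earlier results of these data known, and the share of reads on the Sm site, the ends with at least 5% of reads and the further thymidines of U6 were chosen after the values were seen. The matching, interval and test steps were tested on simulated data. Python 3.11.15, scipy 1.17.1, R 4.3.3 and edgeR 4.0.16 were used.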

Additional observations from a re-analysis of the deposited data

How the results depend on the processing

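No class was past the thresholds under any alternative. A p threshold of 0.05 and edgeR's exact test with an assumed coefficient of variation of 0.4 were among them. These 2 could not have given a call, since they leave the fold changes of the classes (0.657 to 1.38) as they are. The assumed spread gave p between 0.470 and 0.945 for the classes and 0.713 for the total. Over the alternatives for the 7 classes, 81 values kept the direction of the fold change and 10 turned it. The 81 include settings that could not change a fold change. These were the p threshold of 0.05, the assumed spread, the division of tags among classes (no tag matched more than 1) and Rnu6 alone for U6. The count of 81 is therefore no measure of how stable the directions are. TMM scaling multiplied all fold changes by 1.14 (0.19 on the log2 scale), so that U1 came to 1.07 and U11 to 1.09, and median-ratio scaling gave 1.05 and 1.08. Both scalings were set by small RNA features that include snRNA-type genes sharing the members' reads, so they are not an independent check. Without hairpin reads in the denominator U11 came to 1.01. With tags of at least 21 nt only, U1 came to 1.08, U2 to 1.08, U7 to 1.43, U11 to 1.08 and the total to 1.02, by leaving out the short tags. Without tags that match another transcript type U5 came to 0.671, from 12 and 9 reads. With clean reads of the same tag length as the denominator, chosen after seeing the data, U2 was 0.861, U6 0.652, U12 1.37 and the total 0.878.

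The snRNA tags past the thresholds were 1 upward and 6 downward. They were 2 upward and 5 downward with TMM and with median-ratio scaling, and 1 upward and 8 downward without hairpin reads in the denominator. With a limit of 1 RPM they were 18 upward and 42 downward of 171. At that limit 29.1% and 26.7% of all tags passed.

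The difference of the 5′ end share (AICAR minus DMSO, percentage points) changed sign for U11 with 1 mismatch (-0.0175), for U5 with tags of at least 21 nt (1.85) and an end window of 5 nt (1.005), for U1 with windows of 1 nt (0.0257) and 5 nt (0.0475) and for U2 with 5 nt (0.0021), none of them past p of 0.01. That of the 3′ end share changed sign for U1 with tags of at least 21 nt (0.0130), for U7 with a window of 1 nt (6.60) and for U12 with 5 nt (-1.24), and for U6 it was no longer past p of 0.01 without tags that match another type (0, as no such read is left) and with 5 nt (-2.09). The share of short tags changed sign for U5 without tags that match another type (-41.7) and with 1 mismatch (-2.57). It lost its call for U6 without such tags (-1.93) and, with a limit of 24 nt in place of 21 nt, for U2 (-0.769), U6 (-2.70) and U11 (-7.54), and gained it for U12 with 1 mismatch (-4.83) and with 24 nt (-12.5). The share on the Sm site changed sign for U5 with tags of at least 21 nt (2.96) and without tags that match another type (2.78). Where no reason is given, the cause was not tested.

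No paired analysis was possible because there is 1 library per condition, which also left no replicate to leave out.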
